A study of Mus musculus with 2 samples.

Results

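The 45 genes described here drive or mark the cell cycle and DNA replication: cyclins and cyclin-dependent kinases (CDKs), CDK inhibitors, pocket proteins and E2F transcription factors, origin licensing genes, nucleotide synthesis genes, genes of G2 and mitosis, and Myc. They were chosen by symbol, not by level, and all 45 were found among the 55536 annotated genes, of which 22028 are protein-coding. RNA of a nuclear fraction, cleared of ribosomal RNA, was sequenced from bone marrow-derived macrophages, primary cells grown from the marrow of C57BL/6J mice. Before harvest the cells spent 12 hours in 100 ng/ml Lipid A (the moiety of endotoxin sensed by TLR4), then 12 hours after its removal, then 60 minutes in 100 ng/ml Lipid A again. There was 1 group of 2 libraries, both with this treatment, made from 1 µg of RNA (replicate 1) and 500 ng (replicate 2). The labels call them biological replicates but give both the same donor identifier, so the spread between them may be technical. One label field names the fraction nucleoplasmic and another nuclear. No unstimulated or singly stimulated cells were analysed here, so the values are levels and not responses.

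Cells enter the cycle when D-type cyclins activate CDK4 and CDK6, which phosphorylate the pocket proteins RB1 and p107 and so release E2F factors. E2F factors switch on genes that license replication origins and supply nucleotides, and B-type cyclins with CDK1 later drive mitosis. CDK inhibitors oppose each step. Bone marrow-derived macrophages divide in response to the growth factor CSF1, and strong TLR4 signals are known to hold them in G1.

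Replicate 1 held 23630328 expected counts (reads divided among transcripts by the quantifier) on annotated genes and replicate 2 held 15687634. Of the macrophage markers, 8 of 8 stood at 10 TPM or more in both libraries, summing to 4358 and 2615 TPM, with the lysozyme gene Lyz2 the highest at 2210.74 and 1413.02 TPM. TPM is a length-corrected share of all transcripts, scaled to a fixed total in each library. Of the markers of other cells that marrow cultures can hold, 0 of 8 progenitor, 0 of 6 neutrophil, 0 of 7 erythroid, 0 of 7 lymphoid and 0 of 6 stromal or endothelial genes reached 1 TPM in both. The highest of these in their lists were Kit, at 0.77 and 0.52 TPM, Mmp8 (0.94 and 0.98), Alas2 (0.95 and 0.63), Cd79a (0 and 0.10) and Pecam1 (1.48 and 0.53). Elane, Ctsg, Cxcr2 and Cd3e were listed at 0 in both. These values are of the first of 2 quantifiers. In the second, Cxcr2 stood at 0.72 and 1.20 TPM. Pecam1 stood there at 1.59 and 5.29 TPM, the sole one of these markers at 1 TPM or more in both libraries. In bulk RNA, fewer cells of a type and less RNA per cell cannot be told apart, so a low level of a mitotic gene can be either.

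Genes of G1 were present and most genes of mitosis stayed under 1 TPM in both libraries, with Mki67 far above the rest. These are levels on the deposited TPM scale. Scaled over nuclear-encoded protein-coding genes, most of the mitotic members instead reached 1 TPM in both libraries, beside 48.7% of protein-coding genes. Ccnb1 stood at 1.63 and 1.28 TPM on that scale, Kif11 at 1.42 and 1.75 and Top2a at 9.06 and 13.3. Ccnb2 (0.32 and 0.69) and Plk1 (0.60 and 0.32) stayed under 1 TPM in both, Bub1 in replicate 1 and Bub1b in replicate 2. On the deposited scale, 27 of the 45 members reached 1 TPM in both libraries, beside 39.9% of protein-coding genes. On it, 15 stayed under 1 TPM in both. At 10 TPM or more in both stood 6 members, Cdkn1a, Mki67, Cdk6, Pcna, Rb1 and Cdk4, beside 14.9% of protein-coding genes. The CDK inhibitor gene Cdkn1a was the sole member above 100 TPM in both, a level that 1.43% of protein-coding genes reached. The second quantifier gave it 52.7 and 79.5 TPM and put no member at 100 TPM, beside 0.626% of protein-coding genes. The median of the 5 D-type cyclin and kinase genes was 8.38 and 4.19 TPM in the first and second library, against 0.43 and 0.36 TPM for the 14 genes of G2 and mitosis. On the log2(TPM + 0.1) scale those medians were 4.0 and 3.22 apart (mean 3.61 ± 0.55, SD, n = 2). The plot of levels by role shows this order, with Mki67 and Cdkn1a far above the rest of their roles.

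**Figure D1:**
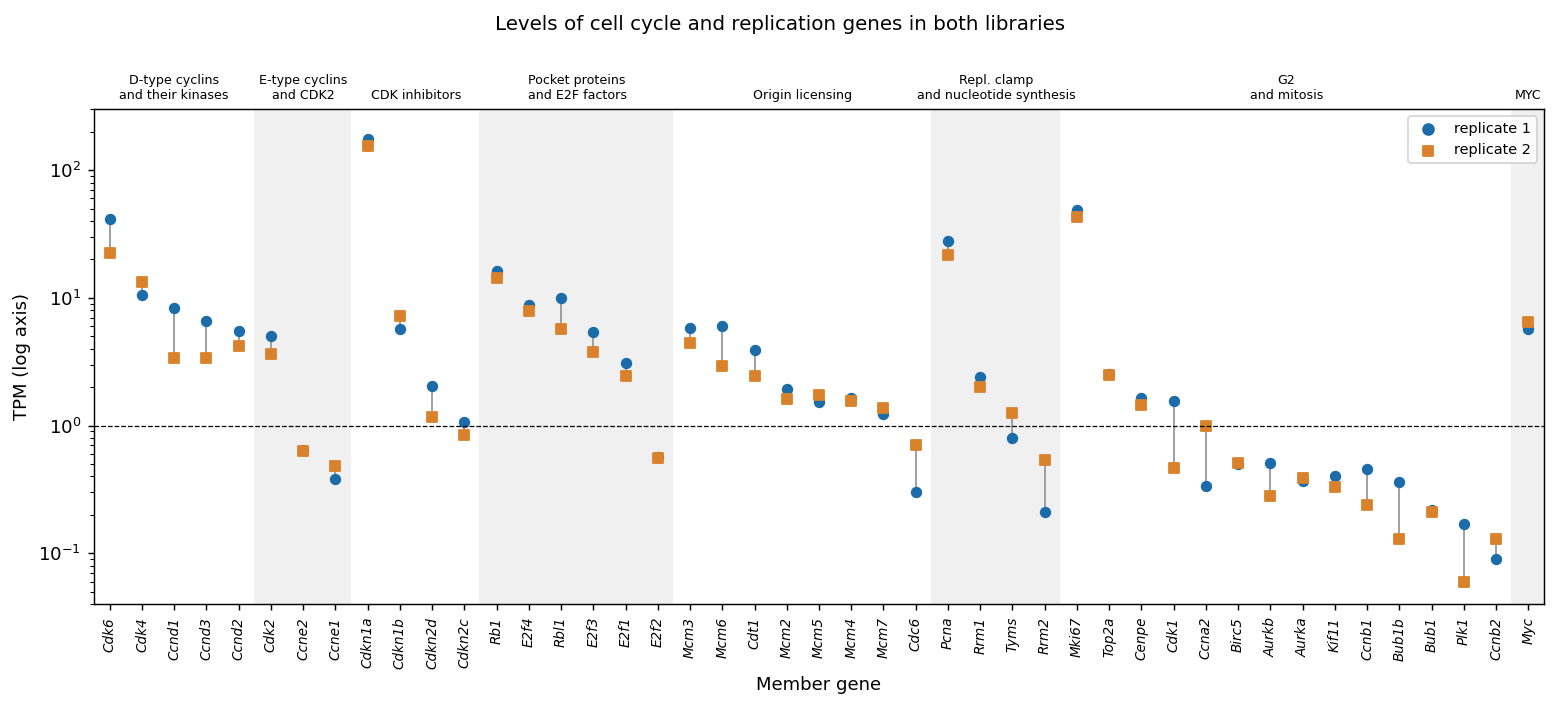
Each member's TPM on a log axis in replicate 1 (circles) and replicate 2 (squares), grouped by role and ordered within a role by mean level, with a dashed line at 1 TPM. Of the 14 genes of G2 and mitosis, Mki67 sat at 48.48 and 43.08 TPM, and 10 lay under 1 TPM in both libraries.

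The promoters of members are shown first for their letters, since Mki67 shares its promoter motifs with mitotic genes that stood far lower. RefSeq promoters (GRCm38.p6; 250 bases before to 50 after the start) matched 36 members, with 42 windows. Those of Aurkb, Ccna2, Ccnd1, Ccnd2, Ccne2, E2f4, Mcm4, Myc and Rb1 were not used here. Both strands were searched for an E2F motif (TTTCCCGC, TTTCGCGC, TTTGCCGC or TTTGGCGC), the CHR (cell cycle genes homology region, TTTGAA or TTCGAA), which MuvB complexes bind, the CCAAT box (CCAAT), which NF-Y binds, and the MYC E-box (CACGTG). Overlapping E2F matches were joined in print, as in the first capital run of Mcm6. The 250 bases before the start are given 5′ to 3′ on the gene's strand, with matches in capitals: the highest mitotic member (Mki67), the next (Top2a) and the lowest (Ccnb2), a licensing gene with E2F matches (Mcm6) and the highest member of all (Cdkn1a, the second of its windows).
Mki67, chr7:135716380-135716629, minus strand: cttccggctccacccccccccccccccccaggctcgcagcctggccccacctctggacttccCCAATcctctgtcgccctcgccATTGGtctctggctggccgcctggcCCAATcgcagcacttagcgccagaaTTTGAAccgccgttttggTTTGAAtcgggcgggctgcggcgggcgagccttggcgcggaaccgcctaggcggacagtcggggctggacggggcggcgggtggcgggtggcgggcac
Top2a, chr11:99024190-99024439, minus strand: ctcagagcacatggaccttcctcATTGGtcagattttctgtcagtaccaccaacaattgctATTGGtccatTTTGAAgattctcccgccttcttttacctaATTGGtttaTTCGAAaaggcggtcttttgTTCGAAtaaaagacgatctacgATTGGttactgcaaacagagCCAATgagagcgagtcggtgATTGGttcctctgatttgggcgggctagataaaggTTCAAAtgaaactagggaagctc
Ccnb2, chr9:70421555-70421804, minus strand: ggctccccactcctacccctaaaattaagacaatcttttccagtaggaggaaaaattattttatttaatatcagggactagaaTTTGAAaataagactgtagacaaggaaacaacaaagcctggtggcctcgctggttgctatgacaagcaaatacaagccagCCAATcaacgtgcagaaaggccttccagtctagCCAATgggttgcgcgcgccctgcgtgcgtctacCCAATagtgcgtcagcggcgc
Mcm6, chr1:128359706-128359955, minus strand: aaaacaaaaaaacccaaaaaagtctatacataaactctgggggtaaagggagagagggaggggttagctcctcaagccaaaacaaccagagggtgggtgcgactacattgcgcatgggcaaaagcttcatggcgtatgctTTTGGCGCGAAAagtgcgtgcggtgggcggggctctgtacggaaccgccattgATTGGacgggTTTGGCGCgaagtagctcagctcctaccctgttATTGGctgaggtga
Cdkn1a, chr17:29093519-29093768, plus strand: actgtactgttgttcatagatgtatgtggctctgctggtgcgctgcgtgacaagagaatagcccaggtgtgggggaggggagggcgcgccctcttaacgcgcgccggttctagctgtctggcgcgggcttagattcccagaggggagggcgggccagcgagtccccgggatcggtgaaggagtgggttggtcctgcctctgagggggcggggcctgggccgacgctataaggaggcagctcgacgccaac

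The Mki67 stretch holds 2 CHR matches, with their last bases 111 and 93 bases before the start, and 3 CCAAT boxes, 184, 162 and 137 bases before it. Top2a holds 4 CHR matches and 6 CCAAT boxes, and Ccnb2 holds 1 and 3. Of the 12 windows of G2 and mitosis genes, 9 held a CHR, beside 19.2% of all 32851 windows in the table, and 11 held a CCAAT box, beside 37.4%. Both were present in 9 of these genes, beside 7.52% of all windows. The E2F motif lay in 11 of the 42 member windows, beside 2.26% of all, and in 6 of the 8 windows of licensing genes, those of Cdc6, Cdt1, Mcm3, Mcm5, Mcm6 and Mcm7. Among mitotic genes it was in 1 of 12, that of Cdk1. The E-box lay in 5 windows (Cdk4, Cdk6, Cdkn2c, E2f3 and Tyms), beside 7.15% of all. Neither Cdkn1a window held any of the 4 motifs. These matches describe letters in a window, not bound sites.

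All 5 genes of the D-type cyclins and their kinases reached 1 TPM in both libraries. The kinase gene Cdk6 (chromosome 5, 3341485 to 3531008) was the highest, at 41.16 and 22.28 TPM from 4337 and 3459 expected counts. Its partner in function Cdk4 (chromosome 10, 127063534 to 127067920) stood at 10.48 and 13.37 TPM, so the ratio of Cdk6 to Cdk4 in TPM was 3.93 in replicate 1 and 1.67 in replicate 2. Cdk6 was the higher in both libraries, by an amount that depended on the library. Part of the Cdk6 TPM lay on a short transcript: Cdk6-203, of 697 bases, had 20.63 and 6.14 TPM from 266 and 69.3 counts. The long Cdk6-202, of 11525 bases, had 12.70 and 12.01 TPM from 3782 and 3210 counts. By counts the long transcript thus held most of the gene, and the fall in Cdk6 TPM from replicate 1 to replicate 2 lay mainly on the short one.

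The 3 D-type cyclins lay close to each other. Ccnd1, the cyclin D1 gene (chromosome 7, 144929931 to 144939925), stood at 8.38 and 3.41 TPM, from 734 and 272 counts. Ccnd3 stood at 6.57 and 3.40 TPM and Ccnd2 at 5.51 and 4.19 TPM. Ccnd1 led in replicate 1 and Ccnd2 in replicate 2, and in the second quantifier Ccnd1 was 0.813 and 0.5 times Ccnd2, so their order was not settled. The deposited TPM interval of Ccnd2 in replicate 1 ran from 5.39 to 83.7 TPM and its posterior mean was 31.92 TPM, against 4.58 TPM in replicate 2. Its level was therefore the least certain of the 3. Exons of Ccnd1 overlap those of LTO1 on the opposite strand by 1100 bases, and LTO1 was at 11.56 and 5.86 TPM. The use of strand in the quantification is not given in the sources used here, so reads of such pairs may not be told apart. In all, 13 members share exon bases with another gene, 12 of them on the opposite strand. Among them, Cdk4 overlaps Tspan31 by 641 bases, Ccne2 overlaps Ints8 by 609 and Ccna2 overlaps Exosc9 by 510. Tspan31 (1067 and 598 counts), Ints8 (476.3 and 462.5) and Exosc9 (245 and 207) each held more counts than the member.

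The E-type cyclins, which activate CDK2 at the start of S phase, were low while their kinase was not. Cdk2 stood at 5.03 and 3.62 TPM. Ccne2 stood at 0.65 and 0.63 TPM and Ccne1 at 0.38 and 0.48 TPM, the latter from 15 and 11 counts. Cdk2 was 13.2 and 7.54 times the level of Ccne1 and 7.74 and 5.75 times that of Ccne2. In the second quantifier it was 2.94 and 2.09 times Ccne1 and 5.09 and 4.11 times Ccne2, so Cdk2 was the higher in both, by differing amounts.

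Of the CDK inhibitors, Cdkn1a (p21, which binds cyclin-CDK complexes and PCNA) was the highest of all members. Cdkn1a (ENSMUSG00000023067.14, chromosome 17, 29090976 to 29100727) stood at 175.05 and 154.00 TPM, from 7203 and 5898 counts (mean 164.5 ± 14.9, SD, n = 2). It ranked 261st and 186th of the 22028 protein-coding genes. Its TPM was above its own deposited interval in both libraries (163.8 to 171.9 and 143.6 to 151.4), whose level is not stated. Of this TPM, 141.87 and 138.82 lay on Cdkn1a-201 and 32.10 and 14.18 on Cdkn1a-203, both coding. Cdkn1a exons overlap AC167363.2, an unclassified locus on the opposite strand with 1059 and 486 counts, by 273 bases.

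The other CDK inhibitors were far lower. Cdkn1b (p27) stood at 5.70 and 7.26 TPM, so Cdkn1a was 30.7 and 21.2 times as high. Cdkn2d (p19), an inhibitor of CDK4 and CDK6, stood at 2.03 and 1.17 TPM and Cdkn2c (p18), of the same class, at 1.06 and 0.85 TPM. In both libraries the order was Cdkn1a, Cdkn1b, Cdkn2d, Cdkn2c.

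Pocket proteins and E2F factors were mostly detected, with 5 of 6 at 1 TPM or more in both libraries. Rb1, the retinoblastoma gene (chromosome 14, 73183673 to 73325822), was the highest at 16.16 and 14.39 TPM. Rbl1 (p107) stood at 9.94 and 5.66 TPM. The repressor-class factor E2f4 followed at 8.85 and 7.94 TPM, above E2f3 at 5.38 and 3.76 and E2f1 at 3.11 and 2.45. E2f2 was the lowest at 0.57 and 0.56 TPM. Rb1 was thus the highest of the 6 and E2f2 the lowest in both libraries, and E2f4 was 2.85 and 3.24 times the level of E2f1. The order of E2f4 and E2f3 was not settled, since in the second quantifier E2f4 was 0.76 and 1.27 times E2f3.

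The licensing genes, which load the MCM2-7 helicase on origins, lay at a few TPM, and 7 of 8 reached 1 TPM in both libraries. Mcm3 stood at 5.78 and 4.45 TPM and Mcm6 (chromosome 1, 128331590 to 128359664) at 6.08 and 2.93 TPM. Cdt1, a helicase loader, stood at 3.88 and 2.45 TPM. The other helicase subunits were lower, Mcm2 at 1.92 and 1.61, Mcm4 at 1.66 and 1.56, Mcm5 at 1.52 and 1.74 and Mcm7 at 1.23 and 1.38 TPM. Subunits that act in one complex thus differed in RNA level, Mcm3 being 4.70 and 3.22 times Mcm7. Cdc6, the other loader, was lowest at 0.30 and 0.70 TPM from 27 and 26 counts.

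Pcna, the sliding clamp of DNA polymerases (chromosome 2, 132249162 to 132253314), stood apart from the nucleotide synthesis genes. It had 27.95 and 21.48 TPM from 845 and 517 counts. Rrm1, the large subunit of ribonucleotide reductase, stood at 2.40 and 1.99 TPM, so Pcna was 11.6 and 10.8 times as high, and 5.09 and 4.49 times in the second quantifier. Rrm2, the subunit whose supply limits the enzyme in S phase, stood at 0.21 and 0.54 TPM from 11 and 17 counts. Tyms, thymidylate synthase, stood at 0.80 and 1.25 TPM from 47 and 69 counts. Both were below Rrm1 in each library. A processed pseudogene, Pcna-ps2, shares 781 bases with Pcna at 99.2% identity but held 1.08 and 4.37 counts.

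Among genes of G2 and mitosis, Mki67 was high and the rest were low. Mki67 encodes Ki-67, the coat protein of mitotic chromosomes that is widely used as a mark of cycling cells (ENSMUSG00000031004.8, chromosome 7, 135689784 to 135716361). It stood at 48.48 and 43.08 TPM, from 12284 and 9857 counts (mean 45.8 ± 3.82, SD, n = 2), and ranked 1066th and 801st of protein-coding genes. As for Cdkn1a, its TPM was above its own deposited interval in both libraries (45.3 to 48.1 and 40.3 to 42.6). Top2a, topoisomerase IIα, came next at 2.55 and 2.51 TPM, from 245 and 223 counts. Mki67 was thus 19.0 and 17.2 times the level of Top2a, and 121 and 131 times the median of the 13 other mitotic members. It held 94.2% and 94.9% of all expected counts on the 14 genes. Of the 44 other mitotic genes, members and the wider list combined, 44 were below it in each library, and the closest, Pttg1 (securin), stood at 18.54 and 11.81 TPM. In the second quantifier 43 and 44 of them were below it. There Kif23, a motor of cytokinesis, stood at 18.7 and 12.3 TPM and so above Mki67 in replicate 1, while the first quantifier gave Kif23 1.64 and 0.84 TPM.

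The Mki67 level lay on its long coding transcript. Mki67-201, of 10061 bases, carried 47.33 and 42.36 TPM, and Mki67-202, of 575 bases, 1.15 and 0.72 TPM. In the second quantifier the gene stood at 16.8 and 24.0 TPM, 12.3 and 11.4 times Top2a and 61.2 and 53.7 times the median of the 13 other mitotic members there. Both quantifiers thus put it more than 10-fold above Top2a in each library. No exon of another annotated gene overlaps it.

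Cenpe, a kinetochore motor, was the remaining mitotic member at 1 TPM or more in both, at 1.64 and 1.44 TPM. Cdk1, the mitotic kinase, stood at 1.56 and 0.47 TPM from 33 and 16 counts. Ccna2 (cyclin A2) stood at 0.34 and 0.99 TPM and Ccnb1 (cyclin B1) at 0.46 and 0.24. These 3 did not keep their order between libraries. Birc5 (survivin) at 0.50 and 0.51, Aurkb (aurora kinase B) at 0.51 and 0.28, Aurka at 0.37 and 0.39 and the spindle motor gene Kif11 at 0.40 and 0.33 TPM were all below 1 TPM. The spindle checkpoint genes Bub1b and Bub1 stood at 0.36 and 0.13 and at 0.22 and 0.21 TPM. Lowest were the mitotic kinase gene Plk1, at 0.17 and 0.06 TPM from 9 and 3 counts, and Ccnb2 (cyclin B2), at 0.09 and 0.13 TPM from 3 and 4 counts. At such counts the order among the lowest genes is not resolved.

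Myc, the growth regulator, stood at 5.76 and 6.46 TPM from 281 and 295 counts (chromosome 15, 61985391 to 61990374). Its level was 0.687 times that of Ccnd1 in replicate 1 and 1.89 times in replicate 2.

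The wider pathway lists showed which neighbours of the members were present. Of 17 other cyclins and CDKs, 14 reached 1 TPM in both libraries, led by the transcription and splicing cyclins Ccnl1 (272.43 and 192.48 TPM), Ccnl2 (56.17 and 39.01) and Ccnt1 (26.58 and 23.18), while Ccna1 and Ccnb3 were listed at 0. Of 21 other inhibitors and checkpoint genes, 12 did, led by the p53 ligase gene Mdm2 (264.20 and 190.35), Gadd45b (256.27 and 145.27) and Btg1 (62.14 and 40.37), while Cdkn2a was listed at 0 and Cdkn3 stood at 0.07 and 0.06 TPM. Of 14 genes of the DREAM and MuvB complexes and other E2F and pocket genes, 10 did, led by Rbbp4 (10.43 and 7.28), Rbl2 (8.42 and 8.29) and Lin37 (4.96 and 6.42). These lists thus held both regulators above most members and genes at 0.

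Among 40 other replication genes, 22 reached 1 TPM in both. Samhd1, a dNTP hydrolase that restricts nucleotide supply, was the highest at 323.08 and 135.00 TPM, above Rfc2 (42.03 and 20.31) and Orc4 (15.66 and 17.38). Among 31 other mitotic genes 8 did, with Pttg1, Mad2l1 (13.52 and 12.30) and Smc4 (9.53 and 5.55) leading. Hmmr stood at 0.08 and 0.09 TPM, but at 1.59 and 1.53 TPM in the second quantifier. Of 11 genes of the MYC network 7 reached 1 TPM in both, led by the MYC antagonist Mxd1 at 72.09 and 27.76 TPM. It stood above Max at 41.44 and 23.69 TPM and Mlxip at 17.04 and 12.32 TPM, and Mycn was listed at 0. Over all 6 lists, 73 of 134 genes reached 1 TPM in both, beside the 39.9% of protein-coding genes.

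Few members were far apart between the replicates, as held for protein-coding genes at large. TPM is not centred between the libraries: for the median protein-coding gene outside the mitochondrial genome, log2 TPM of replicate 2 minus that of replicate 1 was -0.47. Ratios are therefore of counts normalised by TMM (trimmed mean of M-values), with no p-value, since each side is 1 library. Of the 43 members with a mean of 10 or more counts, 2 were over 2-fold apart, beside 8.95% of 14052 genes. Among the 11125 of these genes that are nuclear-encoded and protein-coding, as all members are, the share was 5.88%. Both members were nucleotide synthesis genes and higher in replicate 2, as 4.49% of genes were. Rrm2 had a log2 ratio of 1.24 and Tyms 1.17. Rrm2 had a mean count between 10 and 50, where 22.3% of genes were over 2-fold apart, and Tyms between 50 and 500, where 5.65% were. At 500 or more the share was 2.2%. In the second quantifier neither was over 2-fold apart. Plk1 and Ccnb2 had too few counts for a ratio.

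Of the 43, 26 were higher in replicate 2, beside 50.1% of genes, and 17 in replicate 1, beside 49.9%, and their median log2 ratio was 0.11, beside 0.00 over all genes. Among the well-covered members, Cdkn1b was higher in replicate 2 (log2 ratio 0.84), as was Myc (0.68). Ccnd1 (-0.82) and Mcm6 (-0.66) were lower there. Mki67 (0.30), Cdkn1a (0.32), Rb1 (0.33) and Cdk6 (0.29) were all slightly higher in replicate 2, and Pcna (-0.10) was slightly lower. By TPM relative to the median gene, 10 of the 43 changed sign, Cdk6 (-0.41) and Pcna (0.09) among them. The deposited TPM lay inside its own interval in both libraries for 32 of the 45 members, and the intervals of the libraries did not overlap for 10 members, beside 38.1% of all genes tested. The plot of ratios against counts shows the members inside the cloud of all genes.

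**Figure D2:**
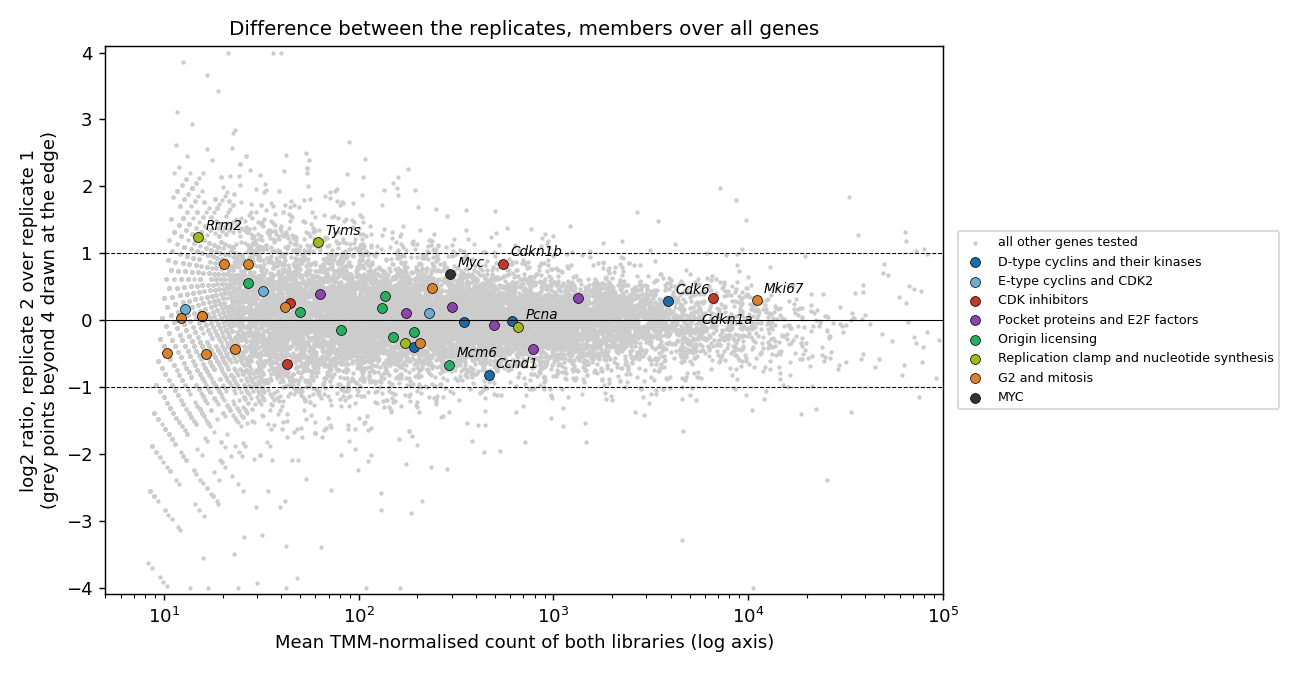
The log2 ratio of TMM-normalised counts, replicate 2 over replicate 1, against the mean normalised count of both libraries on a log axis, for the 43 members tested (coloured by role) and the other genes (grey), with dashed lines at 2-fold. Rrm2 and Tyms are the 2 members outside the lines.

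TPM and counts did not always move together. Against the ratio of counts, 18 of the 43 members changed sign by TPM as deposited and 10 by TPM relative to the median gene. For Cdk4 the mix of transcripts also differed between libraries. Cdk4 had a log2 ratio of -0.03 by counts, but its TPM was higher in replicate 2. The retained-intron transcript Cdk4-209, of 468 bases, was listed at 0 in replicate 1 but had 7.19 TPM, from 42.4 counts, in replicate 2, while the main coding transcript Cdk4-201 had 6.18 and 3.50 TPM. The order of Cdk4 between libraries thus depends on 1 short transcript.

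Over all 239 member transcripts, 90.1% ± 2.93 (SD, n = 2) of TPM lay on transcripts annotated as coding and 8.57% ± 2.41 on transcripts with a retained intron. Over all nuclear-encoded protein-coding genes the shares were 73.3% and 18.7%. Cdkn1a has the largest part in the member total, and single members differed widely. The 5 with the largest share outside coding transcripts were Tyms (100% and 82.4%), Mcm3 (48.6% and 60.2%), Cdk4 (28.9% and 66.4%), Aurkb (39.2% and 55.6%) and Mcm7 (17.1% and 65.9%). By expected counts Tyms had 100% and 77.6% there, and the shares of the other 4 were lower than by TPM, at 12.4% and 19.3% for Mcm3, 22.8% and 37.1% for Cdk4, 6.67% and 29.0% for Aurkb and 7.64% and 27.1% for Mcm7. By TPM of the second quantifier Tyms had 30.9% and 27.6% outside coding transcripts, Mcm3 46.2% and 54.6% and Aurkb 82.4% and 89.7%. The shares of Tyms and Aurkb thus depended on the quantifier. For Mcm3 most of the TPM outside coding transcripts lay on Mcm3-205 and Mcm3-203, at 2.44 and 1.27 and at 0.26 and 1.41 TPM, beside 2.97 and 1.77 TPM on the coding Mcm3-201. Of the 5, Mcm3 and Cdk4 had over 100 counts in each library, and the share was closer between libraries for Mcm3. The plot of transcript classes shows that Mki67, Myc and Mcm4 had all of their TPM on coding transcripts.

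**Figure D3:**
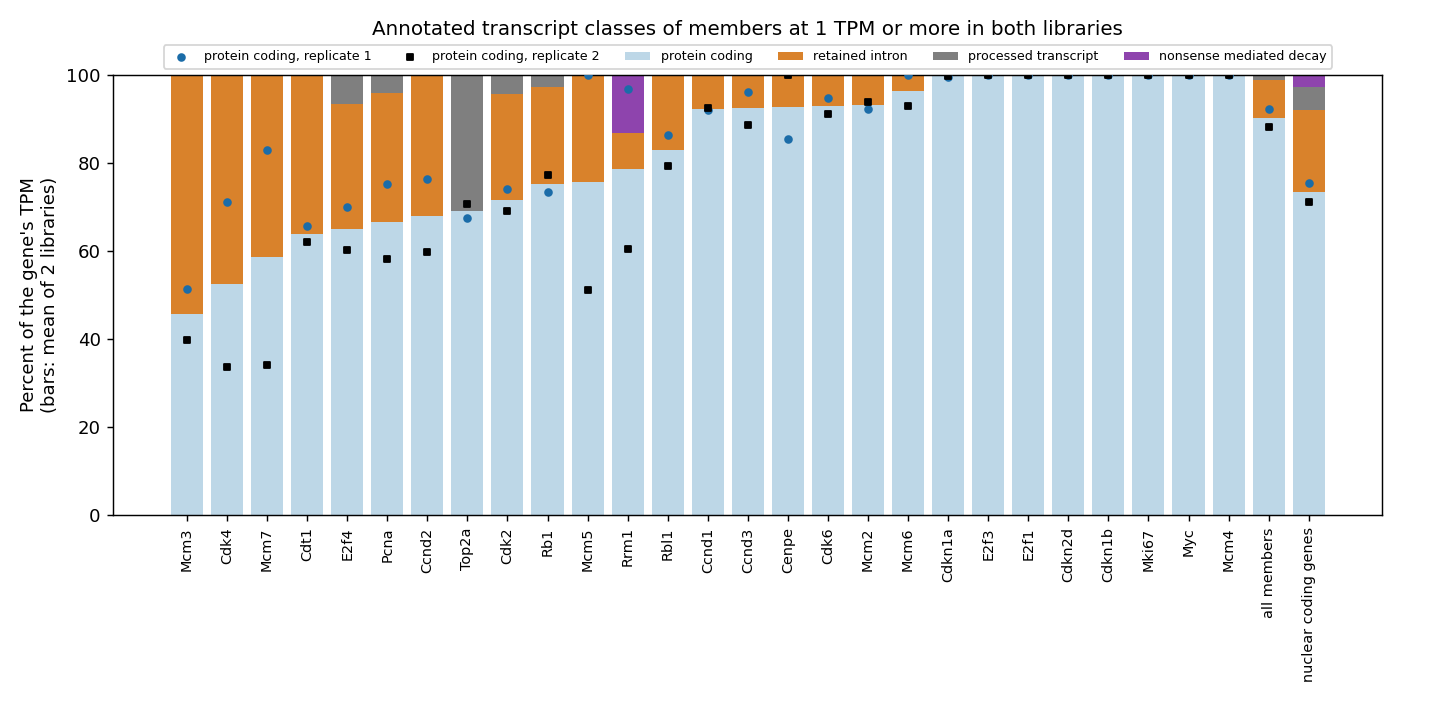
Percent of each gene's TPM on annotated transcript classes (stacked bars, mean of both libraries), for the 27 members at 1 TPM or more in both libraries, for all members summed and for all nuclear-encoded protein-coding genes, with the coding percent of each library as points. Coding shares run from under 50% in Mcm3 to 100% in members such as Mki67.

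By counts, and by TPM relative to the median gene, the 2 quantifiers disagreed most on a few low members. The second put 23 members at 1 TPM or more in both libraries, beside 37.6% of protein-coding genes, and 4 at 10 TPM or more, beside 9.21%. The median gene had 1.42 times as many counts in the second quantifier, and 15.6% of 11113 genes had 2 or more times as many. Birc5 had 14.5 times as many, at 271 and 296 counts against 18 and 21. Tyms had 8.15 times as many, at 468 and 477 against 47 and 69, and Cdk1 had 5.33 times as many, at 137 and 124 against 33 and 16. The median gene had a lower TPM in the second quantifier (log2 ratio -0.97). Once that shift was removed, Ccne1 and Aurkb were the others of the 5 whose TPM differed most. Their count ratios were 3.0 and 1.82. These low members thus have no level relative to the median gene on which both quantifiers settle. In counts Mki67 (1.23 times) and Cdkn1a (1.24 times) differed less than the median gene. Their TPM did differ: the mean of both libraries was 45.8 for Mki67 in the first quantifier and 20.4 in the second. For Cdkn1a it was 164.5 and 66.1.

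For each of the 3, single transcripts carried the gap. Birc5-202 held 270 and 292 counts in the second quantifier against 10.8 and 15.9 in the first. Tyms-201 held 349 and 350 against 0 and 15.4, and Cdk1-207 held 88.9 and 86.4 against 0 and 0. The longest coding transcripts of Birc5 and Tyms share stretches of 100 bases or more, at 85% identity or more, with 2549 and 426 other genes, and that of Cdk1 with 1. For Cdk1 the longest was Cdk1-201, so this value does not cover Cdk1-207, which carried the gap. Of all members, 7 share such stretches with 50 or more other genes. The count ratio of the other 5 of these was 2.35 for Kif11 (2438 genes), 1.87 for E2f1 (112) and 1.69 for Mcm5 (2358), above the median gene, and 1.36 for Cdk6 (2472) and 1.29 for Cdk4 (1450), below it. The part of such stretches in the gap was not tested. On replicate differences the second quantifier had 0 of 44 members over 2-fold apart, beside 12.2% of genes, and gave Rrm2 and Tyms log2 ratios of 0.63 and 0.14.

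**Figure D4:**
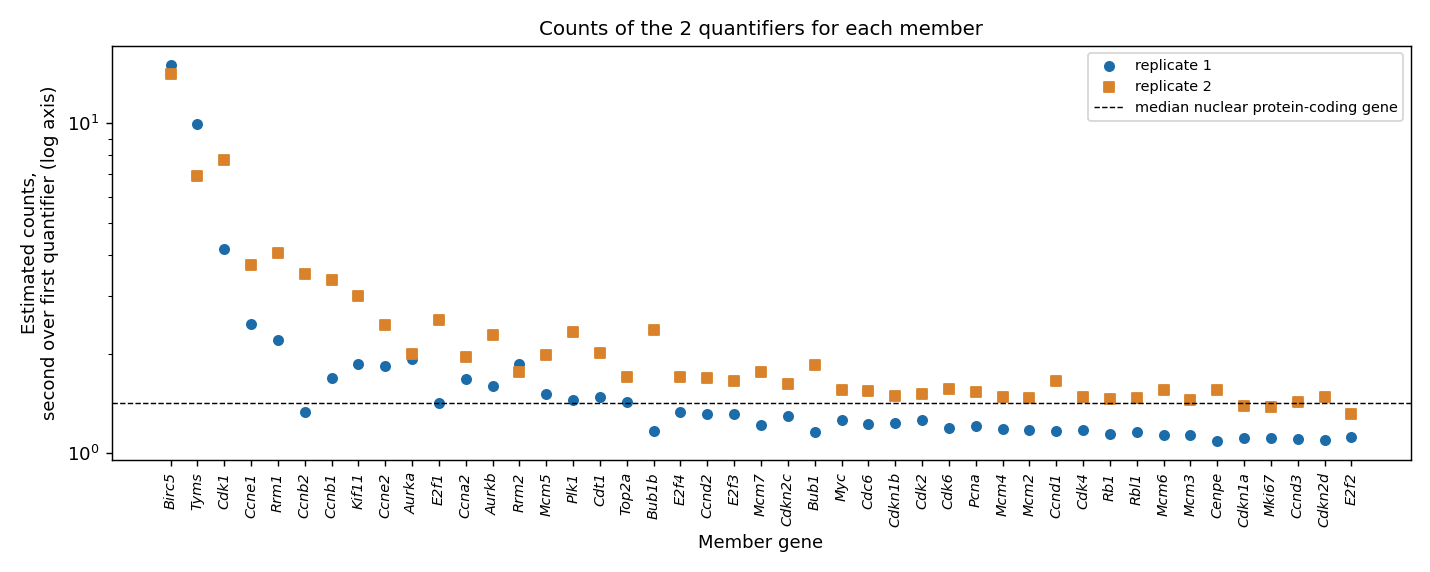
Estimated counts of the second quantifier divided by expected counts of the first, on a log axis, for each member in replicate 1 (circles) and replicate 2 (squares), ordered by the ratio of counts summed over libraries, with a dashed line at the median gene (1.42). Birc5, Tyms and Cdk1 stand above all other members.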

How the data were processed

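Both libraries came with 3 tables of values. A gene table and a transcript table, in RSEM's format, are called the first quantifier, and a transcript table in kallisto's format the second. Per the file headers, the deposited values are expected counts (estimated counts in the second) and TPM, with a posterior mean and an interval of TPM in the gene table. The deposited readme files name mm10 and GENCODE M21. An expected count is the authors' estimate after reads were shared out among transcripts. The deposited TPM of a transcript with a short effective length is large for its counts. Scaled over nuclear-encoded protein-coding genes alone, member TPM was higher, as for Ccnd1 at 29.8 and 18.1 against 8.38 and 3.41 TPM. The aligner is not given in the sources used here. Rows that are no annotated gene (1.19% and 0.215% of expected counts) were left out. Totals of the second quantifier were 32262178 and 27066870.

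Expected counts were rounded and normalised over all genes by TMM in edgeR 4.0.16 (R 4.3.3), for those whose mean was at least 10 counts, a step tested on simulated data. DESeq2 1.42.0 size factors were an alternative. Shared sequence was found with blastn 2.17.0. Other steps used Python 3.11.15, numpy 2.4.6 and pandas 2.3.3. With 1 group there is no test between conditions.

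The members and lists were chosen with earlier results of these data known. Every member is named with its values, in each pathway list the 3 highest genes and up to 2 under 0.1 TPM in both libraries, and in each marker list the highest gene.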

Additional observations from a re-analysis of the deposited data

How the results depend on the processing

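No paired analysis was possible because the series has 1 group. With 2 libraries and no contrast, no value carries a p-value, and members with few counts are limited by depth. Of the values of single members, 197 stayed within the spread between replicates or did not move over the alternatives and 112 moved, and of the main values 62 stayed and 36 moved. Ratios between replicates did turn: against the main ratio, 4 of 43 members changed sign in the second quantifier (Cdk2, Rrm1, Bub1b and Aurka), 10 by relative TPM and 18 by TPM as deposited. By the last, 12 members were higher in replicate 2 and 31 in replicate 1 (median log2 ratio -0.19), beside 19% of genes higher in replicate 2. Scaling TPM over nuclear-encoded protein-coding genes raised the median of each role, to 24.0 TPM (D-type cyclins and kinases), 2.83 (E-type cyclins and CDK2), 18.1 (CDK inhibitors), 26.1 (pocket proteins and E2F), 7.51 (licensing), 7.15 (clamp and nucleotides), 1.67 (G2 and mitosis) and 27.4 (Myc), and put 40 members at 1 TPM (48.7% of protein-coding genes) and 19 at 10 TPM (32.7%). A floor of 5 TPM left 10 members (23.1% of protein-coding genes). The second quantifier gave 0.747 (E-type), 1.74 (inhibitors), 4.33 (pocket), 0.725 (licensing), 2.46 (clamp), 0.442 (mitosis) and 3.81 TPM (Myc), and the posterior mean 12.7 (D-type), 1.27 (E-type), 2.52 (licensing), 2.23 (clamp) and 0.765 (mitosis). The licensing median was 1.675 to 1.79 TPM with either library left out.

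The members over 2-fold apart numbered 7 with TPM as deposited (16.2% of genes), 5 with TPM relative to the median gene (10.2%; median member log2 ratio 0.28), 3 with no filter on low counts (15.8%; Ccnb2 added), 1 with a mean of 50 or more counts (4.15%; Tyms) and 0 in the second quantifier (12.2%). By relative TPM the 5 were Ccna2, Cdc6, Rrm2 and Tyms, higher in replicate 2, and Cdk1, lower. The difference between G1 and mitotic medians was 2.32 with a pseudocount of 1, 2.96 in the second quantifier and 4.54 for CPM without length correction. Left out of the mitotic list, an alternative chosen after seeing the data, Mki67 hardly moved its median (0.38 TPM). Coding transcripts held 82.2% in the second quantifier and 96.8% of expected counts, and retained introns 11.4% and 2.90%. From 100 bases before to 50 after the start, the E2F motif lay in 7 member windows, beside 1.27% of all. The cause of these changes was not tested.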
